A study of Mus musculus with 4 samples.

Results

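An imprinted gene is read mainly from a single parental allele, and many imprinted genes set how far a tissue grows before and around birth. The genes described here are H19, Dlk1, Meg3, Rian, Mirg, Mest, Peg3, Plagl1, Grb10 and Zim1, a set of imprinted growth genes and noncoding RNAs that was followed in C2C12 myoblasts depleted of Fxr1. All probes that carry one of these names on the array, controls left out, were taken, whatever their values. Of the 10 genes, 9 had a probe. These had 26 probes in 35 spots, out of 55681 probes and 36413 distinct gene names on the array, and no probe was named Rian.

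H19 is a long noncoding RNA made from the maternal allele beside Igf2 and is strongly induced when myoblasts become myotubes. Dlk1 encodes a membrane protein of the Notch ligand family and lies beside the maternally expressed noncoding RNAs Meg3, Rian and Mirg, which carry many small RNAs. Mest encodes a hydrolase-like protein, Peg3 and Zim1 encode zinc finger proteins that are neighbours and are read from opposite parental alleles, Plagl1 encodes a zinc finger transcription factor that binds at other imprinted genes, and Grb10 encodes an adaptor that holds back insulin and IGF signalling.

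C2C12 is a mouse myoblast line that divides in growth medium and can form myotubes. Cells received either siFxr1, a small interfering RNA aimed at exon 14 of Fxr1, or siControl, a control small interfering RNA, and RNA was taken 48 h after transfection. Each condition was measured in 2 experiments on 1-colour Agilent arrays, which makes 4 arrays, and the siControl and siFxr1 samples of an experiment shared a slide. Experiment, culture and slide therefore cannot be told apart. RNA of siFxr1 in experiment 1 had an integrity number of 8, and that of the other 3 samples 9. Values are normalized log2 signals, so a difference of 1 is 2-fold. A signal was well above background where the scanner software marked it so, which held for 45.4% to 52.9% of the probes of an array. Both Fxr1 probes were lower in siFxr1, by 3.84 and 3.69 on the log2 scale in experiment 1 and by 3.38 and 2.93 in experiment 2. Precision is set by how few arrays there were, 2 in each condition. The study's methods call the 2 experiments biological replicates.

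The set was described as abundant in myoblasts, which the signals bore out for some of its genes and not for others. Of the 26 probes, 14 were well above background on all 4 arrays, 1 on 3 arrays and 11 on no array. H19, Mest, Peg3, Plagl1 and Zim1 had at least 1 probe well above background on all 4 arrays. Dlk1, Meg3, Mirg and Grb10 had none on any array. The cells carried the signal of muscle: 6 of 7 myoblast markers were well above background on all 4 arrays, among them Myod1 and Des, and Myf5 was on none.

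**Figure D1:**
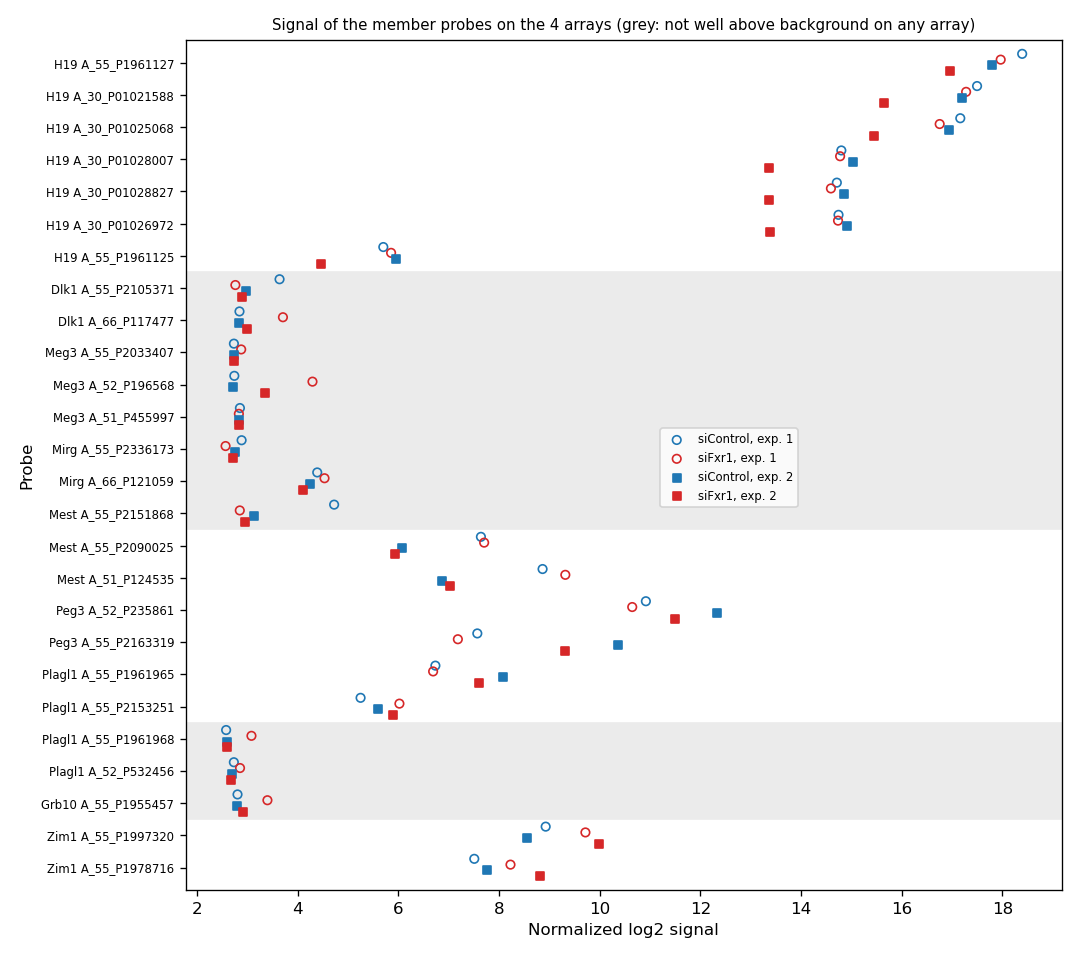
Normalized log2 signal (x axis) of the 26 member probes (y axis) on the 4 arrays, with siControl in blue, siFxr1 in red, experiment 1 as open circles and experiment 2 as filled squares. Grey bands mark the 11 probes that were well above background on no array, which lie between 2.57 and 4.72. Levels of different probes are not on a shared scale.

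The 7 H19 probes are printed first because they show that siFxr1 of experiment 2 stood apart along the whole probed stretch of the transcript. They lie within 985 bases of mm9 on the minus strand of chromosome 7, so the highest position is nearest the start of the RNA. They are listed from the end of the RNA towards its start, each 5′ to 3′.
H19 A_55_P1961127, chr7:149761492-149761551, minus strand: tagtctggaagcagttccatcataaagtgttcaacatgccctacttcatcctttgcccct
H19 A_30_P01021588, chr7:149761693-149761752, minus strand: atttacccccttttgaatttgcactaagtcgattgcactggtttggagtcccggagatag
H19 A_30_P01025068, chr7:149761756-149761815, minus strand: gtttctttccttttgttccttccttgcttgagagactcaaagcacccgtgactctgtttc
H19 A_30_P01028007, chr7:149761957-149762016, minus strand: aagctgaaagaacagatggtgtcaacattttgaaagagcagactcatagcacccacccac
H19 A_30_P01028827, chr7:149762113-149762172, minus strand: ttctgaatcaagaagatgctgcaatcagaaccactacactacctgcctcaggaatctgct
H19 A_30_P01026972, chr7:149762173-149762232, minus strand: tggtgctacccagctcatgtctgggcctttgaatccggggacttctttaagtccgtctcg
H19 A_55_P1961125, chr7:149762417-149762476, minus strand: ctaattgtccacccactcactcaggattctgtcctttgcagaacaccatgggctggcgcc

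These probes contain 45 to 55% G and C, against a median of 43.3% over all probes of the array. The probe with the highest signal, A_55_P1961127, read 18.39 and 17.79 in siControl of experiments 1 and 2 and 17.97 and 16.95 in siFxr1. Probe A_30_P01021588 read 17.50 and 17.19 in siControl and 17.28 and 15.65 in siFxr1. Probe A_30_P01025068 read 17.16 and 16.93 in siControl and 16.75 and 15.44 in siFxr1. On each of them siFxr1 of experiment 2 was the lowest array, and the other 3 arrays lay closer together.

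In the middle of the stretch, A_30_P01028007 read 14.80 and 15.04 in siControl and 14.78 and 13.35 in siFxr1. A_30_P01028827 read 14.71 and 14.86 in siControl and 14.59 and 13.37 in siFxr1. A_30_P01026972 read 14.74 and 14.91 in siControl and 14.73 and 13.38 in siFxr1. The lower siFxr1 array was again that of experiment 2, and in experiment 1 the conditions lay within 0.12 of each other. Probe A_55_P1961125, nearest the start of the RNA among the 7, read 5.70 and 5.95 in siControl and 5.86 and 4.46 in siFxr1, with the same array lowest.

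Over the 7 H19 probes, siFxr1 was lower than siControl by 0.84 to 1.69 in experiment 2, and the difference in experiment 1 was between -0.43 and 0.15. The mean difference over both experiments was between -0.95 and -0.63, a 1.55-fold to 1.93-fold lower signal. For A_30_P01025068, the probe with the largest mean difference, siControl was 17.05 ± 0.16 (SD, n = 2) and siFxr1 16.10 ± 0.93 (SD, n = 2), which gave a difference of -0.95 (SE 0.54, limma adjusted p = 0.975, B = -4.51). The conditions did not overlap on 4 of the 7 probes and overlapped on 3. Taking the brightest probe of each gene, siFxr1 lay wholly below siControl in 14.2% of all genes, and the brightest H19 probe overlapped. The 7 probes read 1 RNA on the same 4 arrays and are not replicates of one another. In experiment 2 all 7 were lower in siFxr1 in each of the 5 ways the signal was processed (-1.71 to -0.47). The weak end came from A_55_P1961125, whose readings (4.46 to 5.95) lay near the lowest signals well above background (4.19 to 5.36). Its difference in experiment 2 was -1.48 here, -0.52 under normexp, -0.47 without background correction and -0.48 in the authors' normalized table. In experiment 1 the sign depended on the processing, with 6 of 7 probes lower here and 3 or 4 of 7 lower in the other 4.

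**Figure D2:**
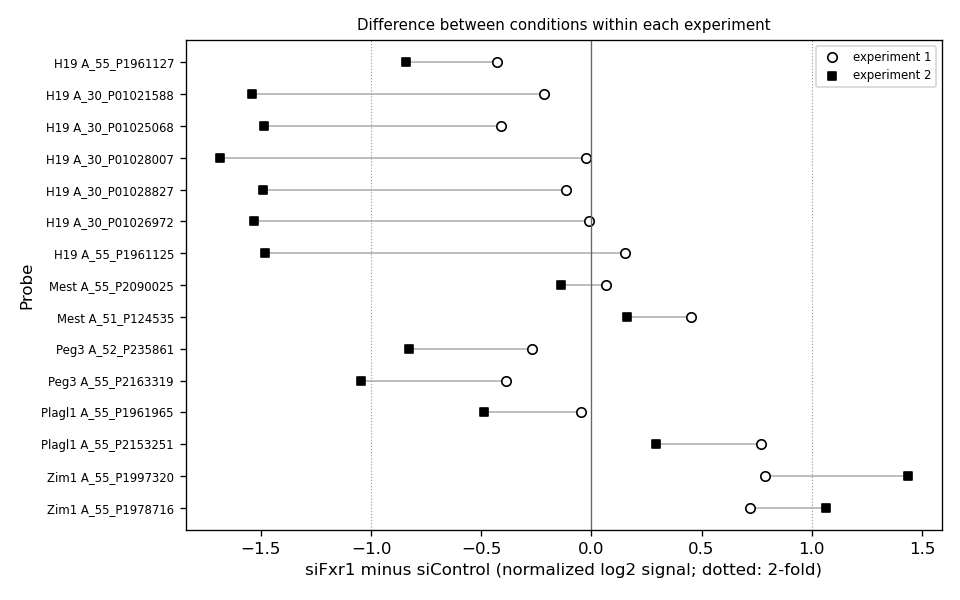
Difference siFxr1 minus siControl in normalized log2 signal (x axis) for the 15 member probes well above background on at least 3 arrays (y axis), with experiment 1 as open circles and experiment 2 as filled squares. The H19 squares lie between -1.69 and -0.84 and the circles between -0.43 and 0.15, while both marks of both Zim1 probes lie above 0.7.

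Zim1 was the gene whose conditions were apart on every probe with signal. Its probes lie on the minus strand of chromosome 7, at chr7:6628222-6628281 and chr7:6628742-6628801. The first, A_55_P1997320, read 8.93 and 8.55 in siControl of experiments 1 and 2 and 9.72 and 9.99 in siFxr1. The second, A_55_P1978716, read 7.51 and 7.76 in siControl and 8.23 and 8.82 in siFxr1. Both siFxr1 arrays were above both siControl arrays on each probe.

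The first Zim1 probe averaged 8.74 ± 0.27 (SD, n = 2) in siControl and 9.85 ± 0.19 (SD, n = 2) in siFxr1, a difference of 1.11 (SE 0.23, limma unadjusted p = 0.0144, adjusted p = 0.952, B = -4.37), or 2.16-fold. The second differed by 0.89 (SE 0.29, limma unadjusted p = 0.0497, adjusted p = 0.975, B = -4.42), or 1.86-fold. Neither passed the adjustment over all probes. Within the experiments the differences were 0.79 and 0.72 in experiment 1 and 1.44 and 1.06 in experiment 2, and under all 5 ways of processing they lay between 0.67 and 0.86 and between 0.80 and 1.44. Both probes contain 35% G and C, and both read 1 gene on the same arrays.

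Peg3, the paternally expressed neighbour of Zim1, had a larger gap from experiment to experiment than from condition to condition. Probe A_52_P235861 at chr7:6658774-6658833 read 10.92 and 12.32 in siControl of experiments 1 and 2 and 10.65 and 11.50 in siFxr1. Probe A_55_P2163319 at chr7:6661407-6661466 read 7.57 and 10.36 in siControl and 7.18 and 9.32 in siFxr1. In each experiment siFxr1 was below siControl on both probes, by 0.27 and 0.39 in experiment 1 and by 0.83 and 1.05 in experiment 2, and the conditions overlapped because both arrays of experiment 2 were above both of experiment 1. The log2 fold changes were -0.55 (SE 0.66, limma adjusted p = 0.975) and -0.72 (SE 1.39, limma adjusted p = 0.976). Condition was the only term in that fit, so these SEs hold the gap between experiments. With the experiment as a second term the SEs were 0.25 and 0.27 (limma adjusted p = 0.640 and 0.590). Leaving out siFxr1 of experiment 1 turned the second fold change to 0.35, and leaving out siControl of experiment 2 turned both, to 0.15 and 0.68. Such a fit sets 1 array against a mean over both experiments, so the gap between experiments enters it.

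The other genes of the Peg3 neighbourhood on chromosome 7 were near or under background. Zim2 and Zfp264 were well above background on no array. Zim3 read 4.66 and 5.01 in siControl and siFxr1 of experiment 1 and 6.20 and 6.31 in those of experiment 2, and was well above background in experiment 2 only. Usp29, which was picked out after its values were seen, read 2.76 and 4.03 in siControl and 5.29 and 5.57 in siFxr1 of experiments 1 and 2, and was well above background on siFxr1 of experiment 2 alone. With signal on 1 siFxr1 array, no fold is given.

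Mest differed less between the conditions than between the experiments. Its probes on chromosome 6 were A_51_P124535 at chr6:30698279-30698338, printed in 10 spots, and A_55_P2090025 at chr6:30697385-30697444, and the remaining probe, A_55_P2151868, was well above background on no array. The first read 8.86 and 6.87 in siControl of experiments 1 and 2 and 9.32 and 7.04 in siFxr1. The second read 7.64 and 6.07 in siControl and 7.70 and 5.93 in siFxr1. Arrays of the same experiment lay together, and both arrays of experiment 1 were above both of experiment 2. The log2 fold changes were 0.31 (SE 1.20, limma adjusted p = 0.993) and -0.04 (SE 0.94, limma adjusted p = 0.999). With the experiment as a second term the SEs were 0.21 and 0.20 (limma adjusted p = 0.697 and 0.964). The SD over the spots of the first probe was between 0.06 and 0.10 on an array, which is technical error within that array. Leaving out siFxr1 of experiment 1 turned the fold change of the first probe to -0.83, and leaving out siControl of experiment 2 turned it to -0.69. Here too the gap between experiments enters, since 1 array is set against a mean over both.

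Plagl1 had 4 probes on chromosome 10, of which 2 were well above background on no array. A_55_P1961965 at chr10:12848421-12848480 read 6.74 and 8.09 in siControl of experiments 1 and 2 and 6.69 and 7.60 in siFxr1. A_55_P2153251 at chr10:12848851-12848910 read 5.25 and 5.60 in siControl and 6.02 and 5.89 in siFxr1, and was not well above background in siControl of experiment 1. The probes disagreed in direction, with log2 fold changes of -0.27 (SE 0.65, limma adjusted p = 0.982) and 0.53 (SE 0.21, limma adjusted p = 0.975). With the experiment as a second term the SEs were 0.23 and 0.24 (limma adjusted p = 0.744 and 0.631). The conditions overlapped on the first and not on the second. Without siFxr1 of experiment 1 or siControl of experiment 2 the fold change of the first was 0.19 or 0.41, values that the gap between experiments enters.

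Read over all probes of the array, no probe was called between the conditions. Of 55681 probes, 0 (0%) had a positive B value, the log odds of a difference in limma, and 0 passed an adjusted p of 0.05 after Benjamini-Hochberg correction, with 2764 at an unadjusted p under 0.05. The Fxr1 probes themselves were not called, with a B value of -4.33 for each. The highest B value of any probe was also -4.33. The threshold thus did not pick out even the targeted gene, and a count of 0 does not show that no probe changed. With the experiment as a replicate block the count was again 0, and the adjusted p of the Zim1 probes was 0.535 for each. At the same B threshold the paper reports transcripts both lowered and raised, with Fxr1 among the most significantly lowered. The fits here did not reproduce those calls. The paper's methods do not state which ratios entered its test.

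By its brightest probe, Zim1 and Mest were higher in siFxr1 in both experiments, 2 of 5 genes, against 34.1% of 19158 genes measured in the same way. H19, Peg3 and Plagl1 were lower in both, 3 of 5, against 29.9%. Plagl1 was in that count by a difference of -0.0452 in experiment 1, which was between 0.0364 and 0.104 in the other 4 ways of processing, so that it left the count there. Of the 5 genes, 0 reached a 2-fold higher signal in both experiments and 0 a 2-fold lower one, where 2.11% and 1.5% of all genes did. Zim1 was the 1 gene whose siFxr1 arrays were both above the siControl arrays, against 16.5% of all genes, and 0 lay wholly below, against 14.2%. The median difference of the 5 genes was -0.27 and that of all genes 0.03.

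Of the 4 genes without signal, Dlk1, Meg3 and Mirg lie on 1 stretch of chromosome 12, from Dlk1 to Mirg. Both Dlk1 probes read between 2.76 and 3.71 over the 4 arrays, the 3 Meg3 probes between 2.71 and 4.29, and both Mirg probes between 2.57 and 4.53. The single Grb10 probe, on chromosome 11, read between 2.79 and 3.40. The lowest signal that was well above background on an array was between 4.19 and 5.36, so these readings give no level and no fold. A low reading of 1 to 3 probes does not show that a transcript was absent, since each reads 60 bases of it. For the noncoding RNAs Meg3 and Mirg, 2 probes of each are printed because they state which bases went without signal.
Meg3 A_52_P196568, chr12:110799558-110799617, plus strand: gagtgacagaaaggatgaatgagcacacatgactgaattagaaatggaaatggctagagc
Meg3 A_51_P455997, chr12:110809678-110809737, plus strand: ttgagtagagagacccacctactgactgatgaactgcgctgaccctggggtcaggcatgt
Mirg A_55_P2336173, chr12:110979653-110979712, plus strand: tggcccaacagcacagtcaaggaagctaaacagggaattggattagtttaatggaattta
Mirg A_66_P121059, chr12:110987569-110987628, plus strand: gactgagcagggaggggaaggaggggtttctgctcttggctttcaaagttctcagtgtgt

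The array carried more probes in this stretch than the named ones. From the first Dlk1 probe to the last Mirg probe, chr12:110698502-110987628 of mm9, or 289 kb, there were 90 probes, 7 of them of Dlk1, Meg3 or Mirg. Of the other 83, most of them named by a genomic interval rather than by a gene, 7 were well above background on all 4 arrays (8.43%), 9 on some arrays and 67 on none, against 42.2% of all probes of the array on all 4. Some of the 83 lie on the minus strand, opposite to Dlk1, Meg3 and Mirg, and the 42.2% covers probes of every kind. Between Meg3 and Mirg, 5 of 52 probes were well above background on all 4 arrays and 42 on none. The stretch was thus mostly without signal also where probes did not carry a member's name. Signal was present between the first and the last Mirg probe, on the plus strand as Mirg is. There A_30_P01027949 read 7.90 and 8.19 in siControl of experiments 1 and 2 and 8.64 and 8.52 in siFxr1. A_30_P01019435 read 8.23 and 9.18 in siControl and 8.24 and 8.72 in siFxr1. Neither probe was assigned to a gene here.

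**Figure D3:**
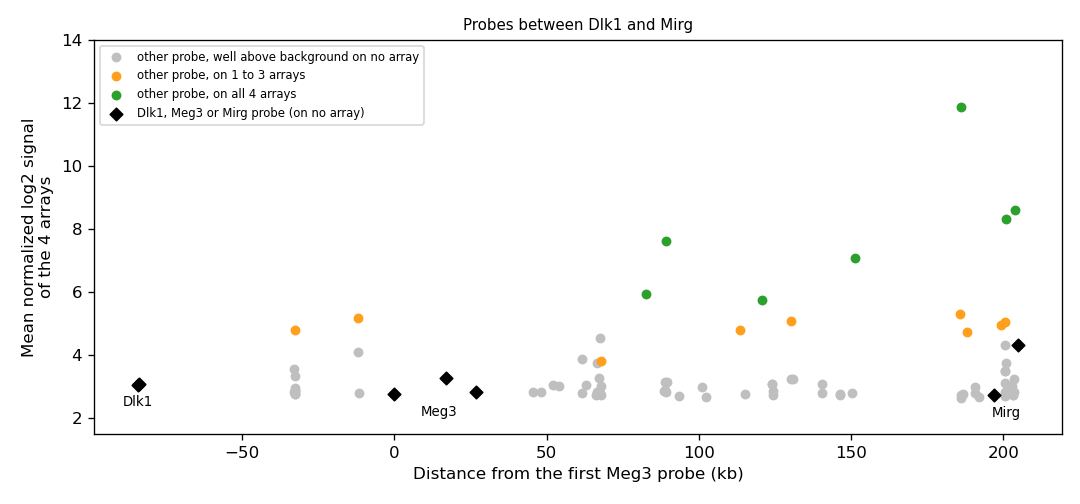
Mean normalized log2 signal over the 4 arrays (y axis) of the 90 probes from Dlk1 to Mirg against the distance from the first Meg3 probe in kb (x axis). Black diamonds are the 7 member probes, and other probes are green where well above background on all 4 arrays (7), orange on 1 to 3 arrays (9) and grey on none (67).

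Between the experiments, Mest was higher in experiment 1 and Peg3 higher in experiment 2 on every probe that had signal. Mest differed by 2.14 (SE 0.21, limma adjusted p = 0.108, B = -0.19) on A_51_P124535, a 4.40-fold difference, and by 1.67 (SE 0.20, limma adjusted p = 0.110, B = -0.82) on A_55_P2090025. The differences were alike in siControl (1.99 and 1.57) and in siFxr1 (2.28 and 1.77). Peg3 differed by -2.46 (SE 0.27, limma adjusted p = 0.108, B = -0.51) on A_55_P2163319, 5.51-fold higher in experiment 2, and by -1.13 (SE 0.25, limma adjusted p = 0.167) on A_52_P235861.

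Plagl1 was higher in experiment 2 by 1.35 in siControl and by 0.91 in siFxr1 on A_55_P1961965, which gave -1.13 (SE 0.23, limma adjusted p = 0.154), and its other probe differed by -0.11 (SE 0.24, limma adjusted p = 0.901). Zim1 differed by 0.05 (SE 0.27, limma adjusted p = 0.969) and -0.42 (SE 0.22, limma adjusted p = 0.422). The experiments overlapped on both Zim1 probes and on the second Plagl1 probe, and were apart on the first.

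For H19, the gap between the experiments was larger in siFxr1 than in siControl on each of the 7 probes. This restates the larger difference between conditions in experiment 2, since the same readings give both, and is not a separate result. In siFxr1 the 7 probes were 1.01 to 1.63 higher in experiment 1, and in siControl the difference was between -0.24 and 0.60, the highest on the brightest probe. Under 75th percentile scaling it was above 0 in siControl on 6 of the 7 probes, up to 0.89. On A_55_P1961127, the probe with the highest signal, it was 0.81 (SE 0.23, limma adjusted p = 0.214) over both conditions. Whether the difference between experiments itself differed between conditions has no test here, because 1 array stood in each cell of that comparison.

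**Figure D4:**
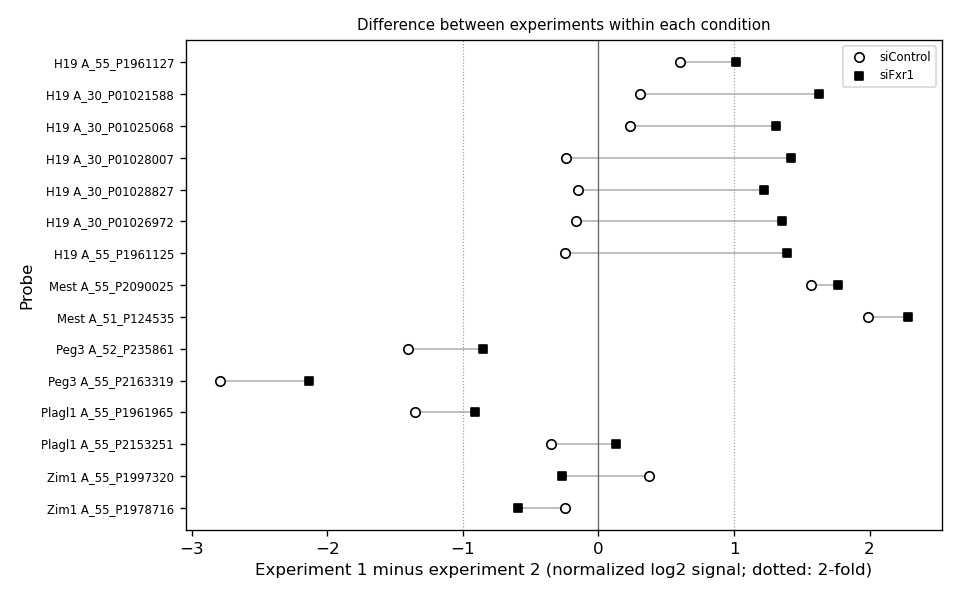
Difference experiment 1 minus experiment 2 in normalized log2 signal (x axis) for the 15 member probes well above background on at least 3 arrays (y axis), with siControl as open circles and siFxr1 as filled squares. Both marks lie above 1.5 for the Mest probes and below -0.8 for the Peg3 probes, and the H19 squares lie above 1 while 4 of the 7 H19 circles lie below 0.

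Of all probes, 190 had a B value above 0 and a higher signal in experiment 1 (0.341%), 474 a B value above 0 and a lower one (0.851%), and 0 an adjusted p under 0.05 in limma, with 11172 at an unadjusted p under 0.05. Of the 26 member probes, 0 had a B value above 0. The nearest, Mest A_51_P124535, passed it under 6 of the 7 other ways of processing or fitting, as did Peg3 A_55_P2163319. Among 20227 genes measured by their brightest probe, 5.1% reached a 2-fold higher signal in experiment 1 in both conditions and 7.49% a 2-fold lower one. Mest was 1 of 5 members in the first group and 0 of 5 were in the second. By that probe H19 and Mest lay wholly above in experiment 1, against 29.7% of all genes, and Peg3 and Plagl1 wholly below, against 28.5%. Most of the other H19 probes overlapped between the experiments, as did Plagl1 A_55_P2153251.

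Markers of muscle differentiation moved with the experiments too. All 9 of the list (Myog, Myh3, Myh8, Ckm, Acta1, Tnnt3, Mylpf, Actn2 and Tmem8c) had the higher signal in experiment 1 whichever siRNA was used, with a median difference of 2.12. Their summed linear signal was 249500 and 224300 in siControl and siFxr1 of experiment 1 and 64600 and 53190 in those of experiment 2. Myog, the transcription factor that starts terminal differentiation, read 15.64 and 15.51 in siControl and siFxr1 of experiment 1 and 13.50 and 13.42 in those of experiment 2. Between the conditions the same list had a median difference of -0.10, with 3 genes higher and 4 lower in siFxr1 in both experiments.

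Of the 6 proliferation markers with signal, 1 was higher and 2 were lower in experiment 1 in both conditions. The list's summed signal was 83520 and 80830 in siControl and siFxr1 of experiment 1 and 129400 and 75150 in those of experiment 2. The lowest sum was on siFxr1 of experiment 2, the array with the lowest H19 readings, as it was for the differentiation list (53190). Such a sum rests on the brightest genes. Pcna, the brightest of the list on that array, read 14.86 there and 15.34 to 15.53 on the others. Mki67 read 13.50 and 12.98 in experiment 1 and 15.61 and 14.47 in experiment 2. In bulk RNA, fewer cells of a kind and less RNA per cell cannot be told apart. Adipocyte, hepatocyte and epithelial markers were well above background on all 4 arrays for 1 of 6, 1 of 4 and 0 of 3 genes. Some markers of other cell types differed in the same direction as a member. Between the conditions, Afp read 7.07 and 5.89 in siControl of experiments 1 and 2 and 8.25 and 8.27 in siFxr1, Krt18 6.09 and 2.85 against 7.71 and 5.22, and Fabp4 7.93 and 8.46 against 8.36 and 10.13, each higher in siFxr1 in both experiments, as Zim1 was, although Krt18 was well above background on 3 of the 4 arrays. The epithelial markers Epcam and Cdh1 and the hepatocyte markers Alb, Apoa1 and Ttr were well above background on no array. Between the experiments, Itgam differed by -2.03 and Snap25 by -2.20, lower in experiment 1 as Peg3 was. The other immune marker with signal on all 4 arrays, Cd3e, went the other way (1.12), and the neuron marker Syp differed by 0.0061. The immune list summed to 4071 and 5742 in siControl and siFxr1 of experiment 1 and to 15120 and 13260 in those of experiment 2. Itgam was the brightest gene of that sum on every array. Ptprc and Emr1 of that list were well above background on no array. The part of differentiation, proliferation, other cell types, RNA integrity or slide in the readings of Mest, Peg3, Plagl1, Zim1 and H19 was not tested.

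**Figure D5:**
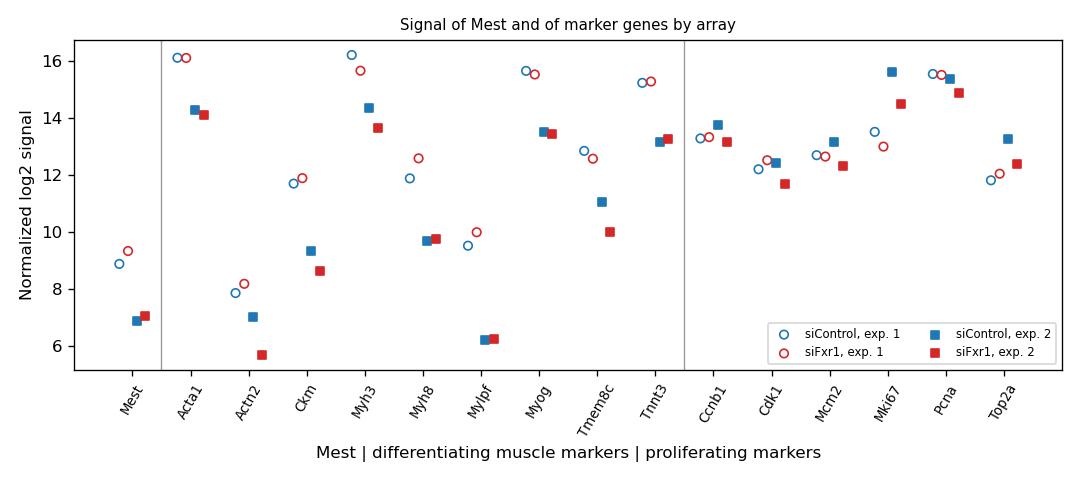
Normalized log2 signal (y axis) of Mest, of the 9 markers of differentiating muscle and of the proliferation markers well above background on at least 3 arrays (x axis, each gene by its brightest probe), by array. For Mest and all 9 muscle markers the open circles of experiment 1 lie above the filled squares of experiment 2.

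Of 68 further imprinted genes in a list not picked for how they moved, 67 were on the array, and 41 had signal on both arrays of a condition. In siFxr1, 9 of these were higher and 17 lower in both experiments, and 15 went opposite ways, with a median difference of -0.05, where 34.1% of all genes were higher and 29.9% lower in both. None of the 41 was 2-fold apart in the same direction in both experiments, and 0 of them had a B value above 0 in limma, with 1 of the 41 genes at an unadjusted p under 0.05.

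The growth genes tied most closely to H19 and Plagl1 each showed a different pattern. Igf2, the growth factor gene next to H19, read 6.16 and 4.999 in siControl of experiments 1 and 2 and 5.41 and 3.27 in siFxr1, and was well above background on siControl of experiment 1 alone. Igf2r, the receptor that clears IGF2, read 8.45 and 6.48 in siControl and 9.11 and 8.58 in siFxr1, so that both siFxr1 arrays were the higher ones (log2 fold change 1.38, SE 0.81, limma adjusted p = 0.975). Cdkn1c, an imprinted inhibitor of cyclin-dependent kinases, read 6.45 and 6.98 in siControl and 8.91 and 7.11 in siFxr1, a difference of 2.46 in experiment 1 and 0.13 in experiment 2 (log2 fold change 1.30, SE 0.75, limma adjusted p = 0.975).

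Between the experiments, 43 of the further genes had signal on both arrays of an experiment, of which 14 were higher and 13 lower in experiment 1 in both conditions, where 39.1% and 36.5% of all genes were. Asb4, Ddc, Magel2 and Zim3 met the 2-fold rule for naming on their readings, but Ddc alone had signal in both experiments. Ddc, which encodes the decarboxylase of dopamine and serotonin synthesis and lies beside Grb10, read 11.20 and 10.86 in siControl and siFxr1 of experiment 1 and 9.10 and 8.12 in those of experiment 2 (difference 2.43, SE 0.26, limma adjusted p = 0.108). Asb4 read 5.97 and 5.91 in experiment 1 and was not well above background in experiment 2. Its difference was 2.68 (limma adjusted p = 0.108) and came down to 0.61 under another processing. Magel2 and Zim3 were not well above background in experiment 1. Their differences were -1.82 and -1.42 (limma adjusted p = 0.113 and 0.119) and shrank to -0.26 and -0.46 under another processing, so no fold is given for these 3 genes.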

How the data were processed

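Total RNA from the siControl and siFxr1 transfections of C2C12 was measured on 4 arrays, 2 per condition, assigned by their labels. The authors deposited, per array, spot intensity from Agilent Feature Extraction 10.7.3.1, corrected for background within the array and not normalized between arrays, and a table of normalized intensity with array medians of 126 to 126.75 over spots, used as an alternative. That table's scale was taken as linear, and its own steps are not given in the sources used here beyond quantile normalization and limma.

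Here, in R 4.3.3 with limma 3.58.1, log2 values of that intensity were quantile-normalized over 59305 noncontrol spots. Between 145 and 177 outlier spots per array were set to missing, 0 were saturated, and spots of a probe were averaged. A probe was well above background where at least 0.5 of its spots were marked so. lmFit and eBayes (proportion 0.01) were run on all probes, with condition as the only term between conditions and with condition as a second term between experiments. A call needed a B value above 0, as in the study's methods, and Benjamini-Hochberg adjusted p-values cover all probes. Both fits were run on simulated data with known differences and independent noise. For the condition fit these data held no gap between experiments, so the run does not show that this fit can call a change in the 4 arrays. The smallest two-sided exact permutation p for 2 against 2 is 0.333.

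Experiment numbers come from the labels and mark a shared slide, so they pair the samples. After each condition's mean was taken off, samples of the same number correlated at 0.714. Arrays correlated at 0.981 and 0.976 within an experiment and at 0.961 and 0.965 within a condition. No spot value was identical between any pair of arrays (0 spots).

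The members and lists were chosen with earlier results of these data known. All probes of the members were described, and of the wider imprinted list those at least 2-fold apart in the same direction in both pairs of arrays, plus Igf2, Igf2r and Cdkn1c. For counts by gene the brightest probe was used. Gene names and positions are the array's own (mm9), whose exon and intron annotation was not used here. The sequence of 1 Meg3 probe is not reported here.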

Additional observations from a re-analysis of the deposited data

Results flagged for a closer look

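A few probes of the set moved in opposite directions in the groups compared, and in each case the difference was not tested, since 1 array stood on each side. For siFxr1 minus siControl, H19 A_55_P1961125 was 0.15 in experiment 1 and -1.48 in experiment 2, and Mest A_55_P2090025 was 0.0641 and -0.14. For this Mest probe the mean over both experiments changed sign under 4 of the 7 alternatives.

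For experiment 1 minus experiment 2, the H19 probes A_30_P01028007, A_30_P01028827, A_30_P01026972 and A_55_P1961125 were -0.24, -0.15, -0.16 and -0.24 in siControl and 1.42, 1.22, 1.36 and 1.39 in siFxr1. Plagl1 A_55_P2153251 was -0.35 in siControl and 0.13 in siFxr1. Zim1 A_55_P1997320 was 0.38 in siControl and -0.27 in siFxr1. In the H19 probes siFxr1 of experiment 2 was the array that lay away from the other 3, and these are the readings already described.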

How the results depend on the processing

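Between the conditions, the count of probes with a B value above 0 was 0 under every alternative that kept all arrays, the replicate block included, and 0 member probes were called. The Fxr1 probes were not called there either, so these counts do not tell whether a member changed. Counting each member probe with signal under each alternative, fits with 1 array left out included, the difference between conditions changed sign in 14 cases and kept it in 151. The Mest probe A_55_P2090025 turned to 0.0141 under 75th percentile scaling, 0.0552 under normexp, 0.0542 without background correction and 0.0566 in the authors' normalized table, and Zim3 to -0.0167 under normexp. Over the fits that leave out 1 array each, the ranges that crossed 0 were -0.83 to 1.45 for Mest A_51_P124535, -0.92 to 0.85 for Mest A_55_P2090025, -1.25 to 0.15 for Peg3 A_52_P235861, -2.11 to 0.68 for Peg3 A_55_P2163319, -0.94 to 0.41 for Plagl1 A_55_P1961965, -1.36 to 0.0325 for H19 A_55_P1961125, -2.03 to 0.71 for Ddc, -0.54 to 1.00 for Zim3, -1.23 to 1.81 for Asb4 and -1.21 to 0.84 for Magel2. Zim1 A_55_P1997320 stayed between 0.92 and 1.30. These fits set 1 array of a condition against the mean of both experiments in the other, so the gap between experiments enters their values. The cause of the sign changes under other processing was not tested.

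Between the experiments, the 664 probes with a B value above 0 became 3202 under 75th percentile scaling, 1929 under normexp, 2127 without background correction, 2240 in the authors' table and 1284 with only probes well above background. With these, Mest A_51_P124535 passed the B threshold, and its log2 differences were 1.935, 1.61, 1.52, 1.52 and 2.14. With an intensity trend it also passed that threshold, at a log2 difference of 2.14. Peg3 A_52_P235861 passed the B threshold in the authors' table (log2 difference -1.08). The log2 difference of Zim1 A_55_P1997320 turned to -0.0058 under 75th percentile scaling. That scaling moved the median difference of all genes between the experiments to 0.14, from 0.02. Leaving out an array leaves this comparison no residual degrees of freedom, so it gave values without a test and no counts.

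The 691 genes 2-fold apart between the conditions in both experiments became 710 under 75th percentile scaling, 276 under normexp, 248 without background correction and 247 in the authors' table, and the 2547 between the experiments became 3034, 1297, 1176 and 1175. The probes named Dlk1, Meg3, Mirg and Grb10 were well above background on no array. With 2 arrays per condition, a difference in these genes was not detectable by those probes.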
